A study of Homo sapiens with 6 samples.

Results

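The genes described here encode the protein components of the cytoplasmic ribosome in PC9, an established human lung adenocarcinoma line whose growth depends on a mutated EGFR. Members were taken by gene symbol, without using any measured value: RPL or RPS followed by a number, the 3 stalk genes RPLP0, RPLP1 and RPLP2, and RPSA. The pattern found 79 symbols. RPS27L was left out by rule, and 2 further symbols were left out because RefSeq lists them as older names of pseudogenes. The remaining 76 of 26195 genes comprised 40 genes of the large subunit, 27 of the small subunit, 3 of the stalk and 6 paralogs (RPL3L, RPL7L1, RPL10L, RPL22L1, RPL26L1 and RPL39L). Apart from 4 related genes under other names, ribosomal protein genes outside this set were not analysed here.

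Messenger RNA was counted by Drop-seq, which captures polyadenylated transcripts of single cells in droplets and gives every captured molecule its own unique molecular identifier (UMI). There were 6 libraries, 1 per condition. One held untreated PC9 cells, and another held cells transduced with a lentivirus carrying a scrambled shRNA in the vector pLVTHM. Neither of these received a drug. The other 4 libraries were all exposed to 2 µM erlotinib, an EGFR kinase inhibitor, for 1 day, and each also carried a manipulation of the KDM5 histone demethylases. These were 6.25 µM CPI-455, a KDM5 inhibitor, for 4 days; KDM5A shRNA in pLVTHM; KDM5A shRNA with KDM5B shRNA in the same vector; and KDM5A cDNA in a pLenti vector with a CMV promoter. Erlotinib began 4, 5 and 6 days after transduction in the last 3 of these, in that order, and transduced cells were kept in 10% serum, while the untreated and CPI-455 cells were in 5%. No library had erlotinib alone, so erlotinib and the presence of some KDM5 manipulation cannot be told apart.

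A ribosome is built from a large and a small subunit, each a core of ribosomal RNA coated with ribosomal proteins. The large subunit forms the peptide bond, the small subunit decodes the messenger RNA, and the acidic stalk proteins recruit the translation factors. Most ribosomal protein messenger RNAs begin with a terminal oligopyrimidine (TOP) tract, a C followed by a run of pyrimidines, through which mTOR and LARP1 control their translation. Many of these genes have left processed pseudogenes, which are copies of the messenger RNA inserted elsewhere in the genome. A few have an expressed paralog that can take the place of the usual protein.

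Start sequences are shown for some of the members named below, so that these can be compared at the tract. RPL39L, the clearest change below, is not among them. RefSeq (GRCh38.p14) start windows existed for 59 of the 76 members. A tract was defined as a C at the annotated first transcribed base followed by at least 4 more bases that were each C or T, read on the transcribed strand. It was found in 40 of the 59 members (67.8%), against 1404 of 27305 genes with an entry (5.14%), 5 of 63 mitochondrial ribosomal protein genes (7.94%), and 11 of 12 genes on a list of translation factors and other messenger RNAs known for TOP tracts (91.7%), a share fixed by that choice. Each line runs from 15 bases before the annotated start to 15 bases from it onward, with the tract in capitals.
RPL35 (chr9:124861943-124861972, minus strand): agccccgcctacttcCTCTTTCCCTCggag
RPL39 (chrX:119791616-119791645, minus strand): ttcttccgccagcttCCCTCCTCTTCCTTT
RPS21 (chr20:62387088-62387117, plus strand): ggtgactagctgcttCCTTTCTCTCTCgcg
RPL13A (chr19:49487593-49487622, plus strand): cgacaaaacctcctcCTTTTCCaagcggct
RPL29 (chr3:51995881-51995910, minus strand): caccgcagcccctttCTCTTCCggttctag
RPS3A (chr4:151099613-151099642, plus strand): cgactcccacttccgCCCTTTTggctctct
RPL22 (chr1:6199581-6199610, minus strand): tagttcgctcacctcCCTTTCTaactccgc
RPL22L1 (chr3:170870181-170870210, minus strand): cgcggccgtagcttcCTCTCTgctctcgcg
RPL3 (chr22:39319609-39319638, minus strand): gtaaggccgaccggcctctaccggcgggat
RPS29 (chr14:49598696-49598725, minus strand): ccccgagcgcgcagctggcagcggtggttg
RPL7L1 (chr6:42879601-42879630, plus strand): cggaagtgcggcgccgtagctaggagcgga
The tract of RPL39 runs on past the printed window to 19 bases. RPL35, which was lower with erlotinib, and RPL13A and RPL29, which were higher, all carry a tract. Among the paralogs with an entry, RPL22L1 carried one and the other 3 did not. An absent match says only that these letters do not stand at that annotated start.

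Kept cells, which had at least 500 UMIs and at most 20% mitochondrial UMIs, numbered 1166 for untreated PC9, 263 for the scrambled control, 202 under CPI-455, 374 for KDM5A shRNA, 152 where the label gives shRNAs to both KDM5A and KDM5B, and 131 for KDM5A cDNA. Their summed UMIs ranged from 590091 to 3956647. Median UMIs per cell were 1493.5 for untreated PC9, and from 2985.5 to 3762.5 elsewhere. Levels are given in CPM, which are UMIs scaled to the same total in every library. KDM5A was at 121 CPM in untreated cells, 81.9 under the scrambled shRNA, 120 under CPI-455, 56.4 under KDM5A shRNA, 41.3 in the library labelled for both shRNAs, and 164 under KDM5A cDNA. KDM5B stood at 60.4 CPM in untreated cells, 46.4 under the scrambled shRNA, 102 under CPI-455 and 94.9 under KDM5A cDNA. It was at 151 under KDM5A shRNA (interval 133 to 171) and at 138 in the library labelled for both shRNAs (112 to 168). KDM5B was thus not lower in that library than in the drug-free ones. No library had erlotinib alone to set beside it, so its label could not be checked. The 5 epithelial markers had UMIs in every library and summed to between 5148 and 8518 CPM, while 4 leukocyte, 4 fibroblast and 3 endothelial markers each summed to at most 12.4. Intervals throughout are 95% and cover counting error only.

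Ribosomal protein messenger RNA made up a similar share of the UMIs in all 6 conditions. The 76 members held 11.2% of UMIs in untreated cells (interval 11.2% to 11.3%), 11.0% under the scrambled shRNA (10.9% to 11.1%) and 11.1% with CPI-455 (11.1% to 11.2%). They held 10.5% with KDM5A shRNA (10.5% to 10.6%), 10.6% in the library labelled KDM5A and KDM5B shRNA (10.5% to 10.6%) and 11.7% with KDM5A cDNA (11.6% to 11.8%). KDM5A shRNA was lowest and KDM5A cDNA highest, and the erlotinib libraries lay on both sides of the drug-free ones.

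By the median of single cells, the library labelled KDM5A and KDM5B shRNA was lowest and KDM5A cDNA highest. The median cell devoted 11.0%, 10.9%, 10.9%, 10.3%, 9.98% and 11.4% of its UMIs to these genes, in the order used above from untreated to KDM5A cDNA. With every cell thinned to 1000 UMIs, the median number of member UMIs was 111, 113.5, 110.5, 105, 105 and 115 in that order. This left out 344, 41, 38, 42, 28 and 26 shallower cells. A median thinned cell had UMIs of between 45 and 48 of the 76 genes, and before thinning of 52 in the untreated library and 59 to 61 in the others.

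Large and small subunit messenger RNAs went together from cell to cell. After thinning, the Spearman correlation between summed large and summed small subunit UMIs lay between 0.47 and 0.62 across the cells of the 6 libraries, with 105 to 822 cells each. Cells of a library share its preparation, and both sums share each cell's fixed total. The variation between cells beyond counting noise, as a coefficient of variation of the thinned sum, was lowest with CPI-455 at 0.161 and highest in the library labelled KDM5A and KDM5B shRNA at 0.259. That library also had the most barcodes over the mitochondrial limit, 17.8% of those with at least 500 UMIs, against 0.766% to 9.03% in the others. The left-out barcodes held between 1.26% and 5.87% of their UMIs in ribosomal protein genes. The part of such cells in the spread was not tested.

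**Figure D1:**
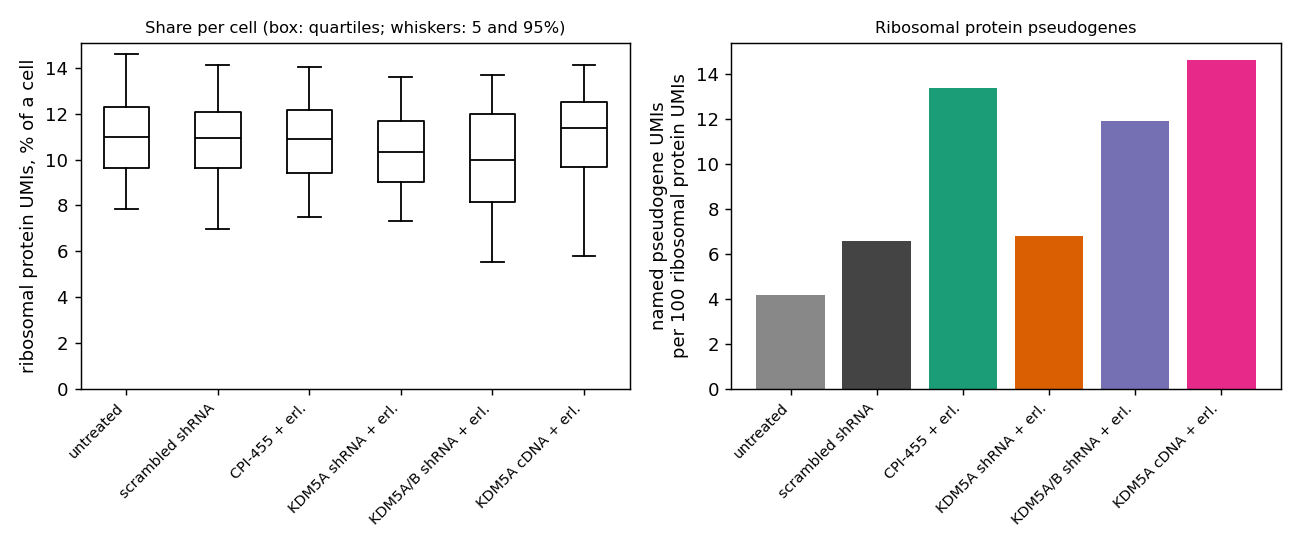
Left, the share of each kept cell's UMIs in the 76 ribosomal protein genes, in percent, for the 6 libraries (box, quartiles with the median; whiskers, the 5th and 95th percentiles of cells). Right, UMIs of named ribosomal protein pseudogenes per 100 UMIs of the genes themselves in each library; medians on the left lie between 9.98% and 11.4%, while the bars on the right run from 4.15 to 14.6.

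At the level of genes, 52 members were at 500 or more CPM in every library, 68 were at 50 or more in every library, and 6 were under 50 in every library. UMIs are counted near the 3′ end of transcripts and were not divided by length. Over the 68 members, the median ratio of the highest to the lowest library was 1.51. RPS12, a small subunit protein, was the flattest of the abundant members named here. It was at 3347 CPM untreated, 3501 scrambled, 3587 with CPI-455, 3539 with KDM5A shRNA, 3548 in the library labelled for both shRNAs and 3455 with KDM5A cDNA, which is 1.07 between the extremes.

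The other members with the most UMIs spread more. RPLP1, a stalk protein, ranged from 3847 to 4627 CPM, and RPL35A of the large subunit from 3168 to 3896. RPS14 ranged from 3050 to 3674 and RPL13 from 3065 in the untreated library to 4557 with KDM5A shRNA. RPL37, which ranged from 2569 in the scrambled library to 5699 in the untreated library, is one of the members with a short coding sequence described below.

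**Figure D2:**
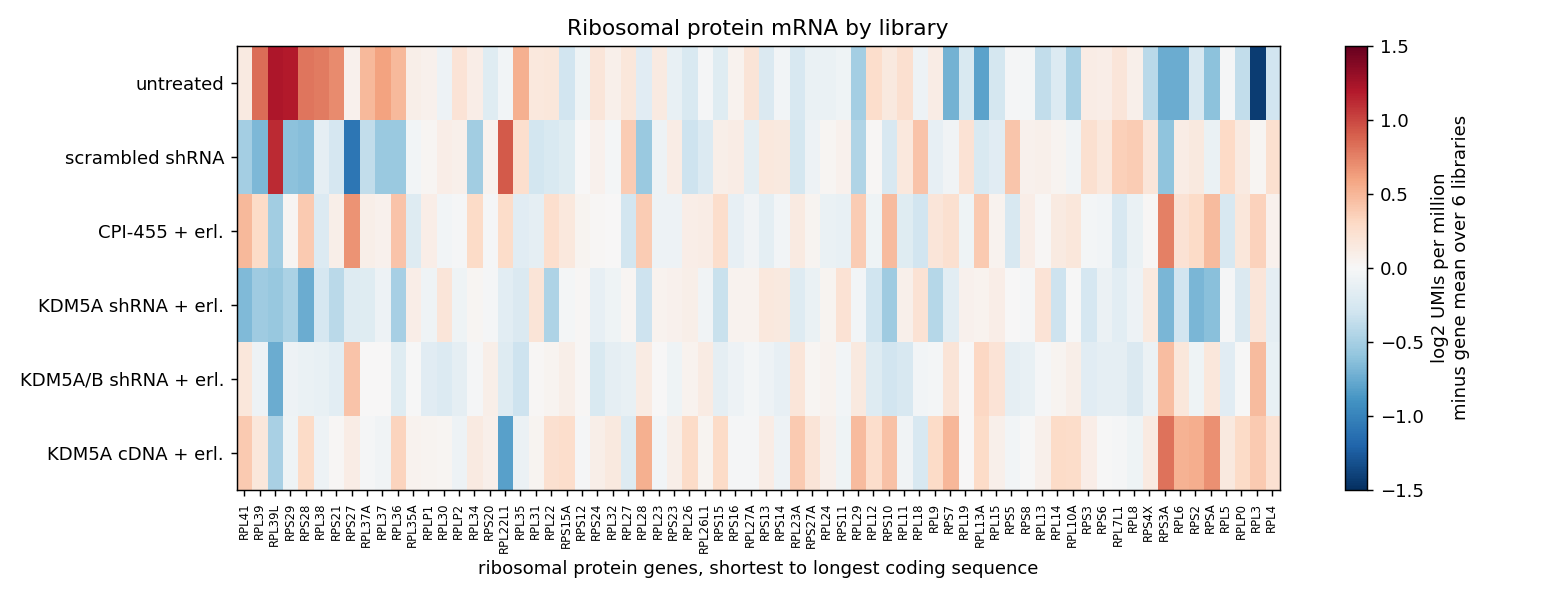
Each column is a ribosomal protein gene with at least 50 CPM in every library, ordered from the shortest to the longest coding sequence, and each row a library; colour is log2 CPM minus the gene's mean over the 6 libraries. Short genes such as RPL39 and RPS29 are red in the untreated row, RPL39L is red in both drug-free rows, and most other columns are pale.

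Erlotinib, tested as 4 libraries with it against 2 without, changed few ribosomal protein genes. Of 76 members, 72 passed the filter on low counts; RPL3L, RPL10L and RPS26 were among those that did not. By edgeR's quasi-likelihood test with Benjamini-Hochberg adjustment over all 10445 tested genes at 0.05, 2 members were higher (all genes: 10.0%) and 2 were lower (all genes: 13.5%). That is 4 of 72 in either direction, against 23.5% of all genes. At an unadjusted p under 0.05 there were 9 of the 72 members (12.5%) and 3969 of all tested genes (38.0%). The median fitted log2 fold of the 72 members was 0.05, against 0.01 for all tested genes. Among members at a median of 500 or more CPM, 48 of 55 (87.3%) lay within 0.5 of 0 on the log2 scale, against 83 of 187 (44.4%) of the other genes that abundant. The labels do not say that the libraries came from separate cultures of 1 condition, so p-values measure only the spread among these libraries, KDM5 manipulations included.

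The clearest change was in RPL39L, a paralog of RPL39, a small protein that lines the exit tunnel of the large subunit. RPL39L was at 209 CPM untreated (interval 195 to 223) and 195 in the scrambled library (172 to 221). It was at 62.9 with CPI-455 (47.4 to 81.9), 60.8 with KDM5A shRNA (49.3 to 74.1), 53.7 in the library labelled for both shRNAs (38.2 to 73.5) and 64.4 with KDM5A cDNA (45.6 to 88.4). The 2 drug-free libraries stood together far above the 4 erlotinib libraries, which did not differ from each other beyond their intervals.

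The fitted log2 fold of RPL39L was -1.70 (standard error, SE, 0.19; edgeR adjusted p = 0.000308), lower in 4 of 4 erlotinib libraries than in both others. Leaving out each library in turn gave log2 folds from -1.73 to -1.65 and edgeR adjusted p from 0.000475 to 0.00273. In all such fits without a drug-free library, the 1 that remains is assumed to vary like the erlotinib libraries. RPL39 itself was at 2391 CPM untreated, 834 scrambled, 1624 with CPI-455, 920 with KDM5A shRNA, 1269 in the library labelled for both shRNAs and 1498 with KDM5A cDNA. Its groups overlapped, and it did not pass at a log2 fold of -0.23 (edgeR adjusted p = 0.68, SE 0.36).

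Of the summed UMIs of the pair, RPL39L therefore held 8.03% untreated and 19.0% in the scrambled library. With erlotinib it held 3.73% with CPI-455, 6.20% with KDM5A shRNA, 4.06% in the library labelled for both shRNAs and 4.12% with KDM5A cDNA. The 2 coding sequences are equally long, at 153 nt, and the proteins are close relatives, so reads may not always be assigned to the right copy. No named pseudogene of RPL39L was found, and 13 of RPL39 were.

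RPL22L1, the paralog of the RNA-binding large subunit protein RPL22, stood apart in the scrambled library. It was at 98.6 CPM untreated, 192 scrambled, 122 with CPI-455, 90.8 with KDM5A shRNA, 88.2 in the library labelled for both shRNAs and 57.6 with KDM5A cDNA. The untreated library lay among the erlotinib libraries, and the log2 fold of -0.64 (edgeR adjusted p = 0.17, SE 0.32) did not pass. Without the untreated library it was -1.10 (edgeR adjusted p = 0.038), with the scrambled library as the only drug-free one.

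RPL22 was at 500 CPM untreated, 378 scrambled, 528 with CPI-455, 321 with KDM5A shRNA, 456 in the library labelled for both shRNAs and 524 with KDM5A cDNA. The share of RPL22L1 in the sum of both was highest in the scrambled library at 33.6% (30.2% to 37.2%) and lowest with KDM5A cDNA at 9.91% (6.96% to 13.6%). It lay between 16.2% and 22.0% in the other 4 libraries.

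The remaining paralogs moved less. RPL26L1 ranged from 104 to 131 CPM, with a log2 fold of 0.20 (edgeR adjusted p = 0.47, SE 0.19), and held between 5.27% and 7.05% of its sum with RPL26. RPL7L1, which takes part in ribosome assembly, was at 173 and 195 CPM in the drug-free libraries and between 129 and 151 in the erlotinib libraries. Its groups did not overlap, but its log2 fold of -0.36 (edgeR adjusted p = 0.19, SE 0.19) did not pass. RPL10L and RPL3L had 35 and 6 UMIs in all.

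In the large subunit, 2 of 40 tested genes were higher and 1 was lower, with a median log2 fold of 0.06. RPL13A, which is also known as a component of an inhibitor of translation in interferon-treated cells, was at 1225 CPM untreated and 1817 scrambled. It was at 2815 with CPI-455, 2207 with KDM5A shRNA, 2644 in the library labelled for both shRNAs and 2598 with KDM5A cDNA. All 4 erlotinib libraries lay above both others, and the log2 fold was 0.79 (edgeR adjusted p = 0.030, SE 0.23).

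RPL29, a small basic protein of the large subunit, was at 253 CPM untreated and 263 scrambled. It was at 467 with CPI-455, 349 with KDM5A shRNA, 400 in the library labelled for both shRNAs and 500 with KDM5A cDNA. The groups did not overlap, and the log2 fold was 0.77 (edgeR adjusted p = 0.028, SE 0.22). Both calls rest on the full set of libraries. Over the 6 fits that each left out 1 library, the edgeR adjusted p ranged from 0.010 to 0.18 for RPL13A and from 0.016 to 0.13 for RPL29, and both calls ended without the untreated, the CPI-455, the KDM5A cDNA or the labelled KDM5A and KDM5B shRNA library. That of RPL29 also ended without the scrambled library.

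RPL35, which sits near the exit tunnel, was the member called lower besides RPL39L. It was at 2912 CPM untreated, 2384 scrambled, 1789 with CPI-455, 1730 with KDM5A shRNA, 1618 in the library labelled for both shRNAs and 1890 with KDM5A cDNA. Every erlotinib library lay below both drug-free libraries. The log2 fold was -0.55 (edgeR adjusted p = 0.048, SE 0.18), and the call ended when any 1 library was left out (edgeR adjusted p from 0.050 to 0.17).

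RPL3, a core protein next to the peptidyl transferase centre, separated the untreated library from all the others. It was at 341 CPM untreated, 937 scrambled, 1171 with CPI-455, 1039 with KDM5A shRNA, 1276 in the library labelled for both shRNAs and 1207 with KDM5A cDNA. The log2 fold of 0.90 (edgeR adjusted p = 0.098, SE 0.36) did not pass. Without the scrambled library it was 1.84 (edgeR adjusted p = 0.0013), with the untreated library alone on the drug-free side and the spread taken from the erlotinib libraries. Without the untreated library it was 0.31.

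No small subunit gene of the 25 tested passed in either direction in the full set of libraries, and their median log2 fold was 0.07. The largest upward fold among all members was that of RPS3A, a small subunit protein that contacts the initiation factor eIF3. RPS3A was at 97.3 CPM untreated, 107 scrambled, 276 with CPI-455, 101 with KDM5A shRNA, 225 in the library labelled for both shRNAs and 286 with KDM5A cDNA. The KDM5A shRNA library stood with the drug-free libraries, and the log2 fold of 1.14 (SE 0.37) just missed the threshold (edgeR adjusted p = 0.052). Without that library the fold was 1.40 (edgeR adjusted p = 0.0017). RPS3A was called higher in 8 of 18 alternatives, among them RLE size factors (edgeR adjusted p = 0.048), DESeq2 (adjusted p = 0.017) and thinned cells (edgeR adjusted p = 0.045). With the split in pseudogene UMIs described below as a term, its fold was 0.05. That fold rests on the KDM5A shRNA library alone against the drug-free ones.

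RPSA, the laminin receptor and a protein of the small subunit, had the same arrangement. It was at 288 CPM untreated, 413 scrambled, 617 with CPI-455, 288 with KDM5A shRNA, 499 in the library labelled for both shRNAs and 712 with KDM5A cDNA. Its log2 fold was 0.62 (edgeR adjusted p = 0.21, SE 0.34). Without the KDM5A shRNA library it was 0.83 (edgeR adjusted p = 0.035). With the split in pseudogene UMIs as a term it turned to -0.23, which again rests on that library alone against the drug-free ones.

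The other members at the ends of the list did not pass in the full set of libraries, and 3 of them turned on a drug-free library. The fits without 1 drug-free library set 4 libraries against a single one, with the spread taken from the 4. RPS27 had a log2 fold of 0.71 (edgeR adjusted p = 0.14), and of 1.34 without the untreated library (edgeR adjusted p = 0.029). RPS29 stood at -0.63 (edgeR adjusted p = 0.26), at -1.27 without the scrambled library (edgeR adjusted p = 0.0038) and at 0.47 without the untreated one. RPL38, a small protein of the large subunit, stood at -0.50 (edgeR adjusted p = 0.14), and at -0.88 without the scrambled library (edgeR adjusted p = 0.017). RPL27 was at -0.37 (edgeR adjusted p = 0.18). The 3 stalk genes had log2 folds between -0.17 and 0.20, and none passed.

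Groups that did not overlap were counted without a test. All 4 erlotinib libraries lay above both drug-free libraries in 8 of 72 members (all genes: 18.6%) and below both in 9 (all genes: 26.7%). The 8 were RPL3, RPL10A, RPL13A, RPL15, RPL23A, RPL26, RPL29 and RPS15A. The 9 were RPL7L1, RPL8, RPL11, RPL27, RPL35, RPL39L, RPLP2, RPS3 and RPS6. Together that is 17 of 72, against 45.3% of all genes.

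**Figure D3:**
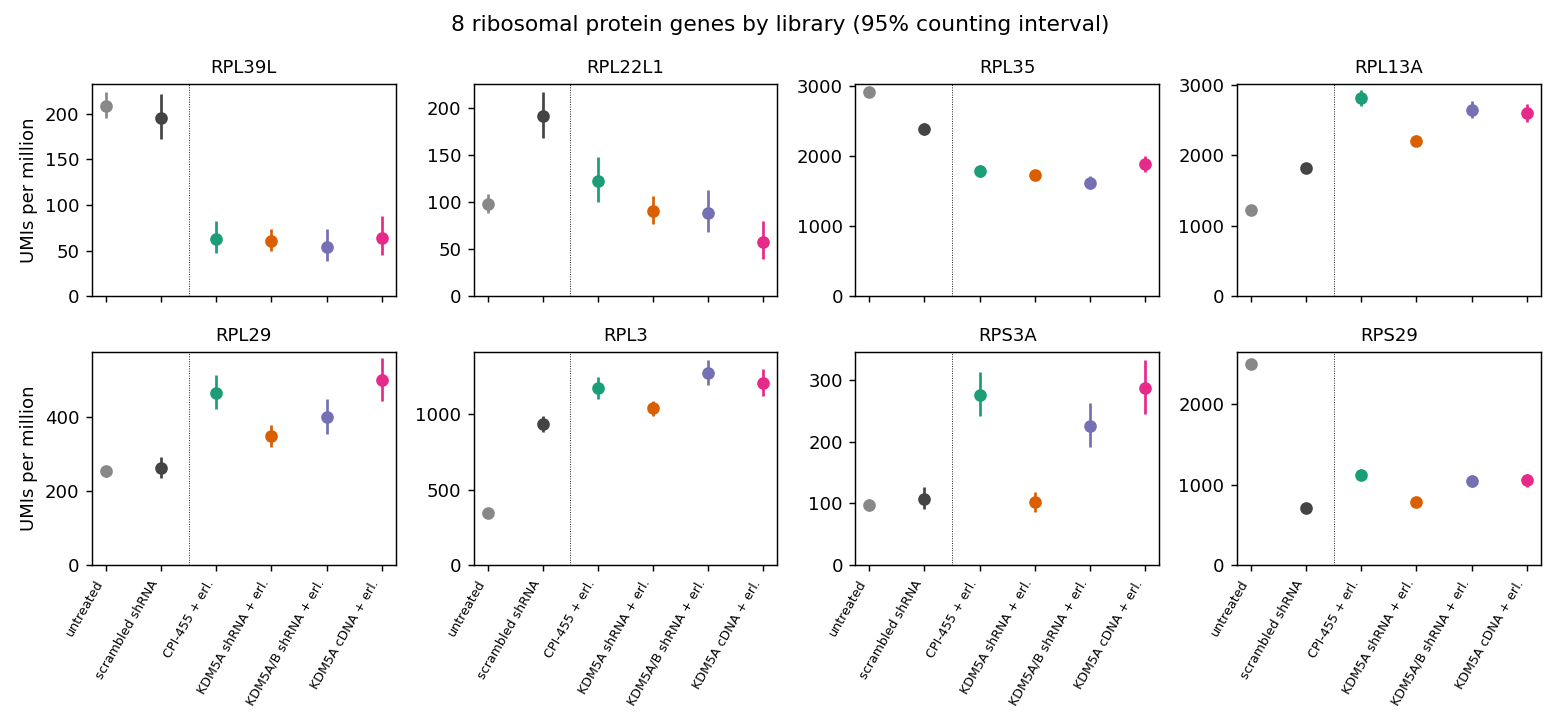
CPM of 8 ribosomal protein genes in each of the 6 libraries, with 95% counting intervals; each panel has its own axis from 0, and the dotted line separates the 2 drug-free libraries from the 4 with erlotinib. RPL39L lies at 195 and 209 to the left of the line and between 53.7 and 64.4 to the right of it, whereas RPL3 and RPS29 separate the untreated library from the others.

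Related genes were read from the same fit. In it, 10.0% of all tested genes were higher and 13.5% lower by the edgeR test, and 38.0% had an unadjusted p under 0.05. Among 28 tested ribosome biogenesis genes, which process ribosomal RNA and assemble the subunits in the nucleolus, 13 were lower and 0 higher by the edgeR test, with a median log2 fold of -0.85; 19 had an unadjusted p under 0.05. NOP56 fell by 2.30 (SE 0.21), RRS1 by 1.72 (SE 0.39) and NOP16 by 1.62 (SE 0.29). Of 68 tested mitochondrial ribosomal protein genes, 22 were lower and 0 higher, 37 had an unadjusted p under 0.05, and the median was -0.55; MRPL1 fell by 1.53 (SE 0.22). Whether these lists differ from the ribosomal proteins was not tested.

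Of 17 tested translation factors and other genes whose messenger RNAs are known for TOP tracts, 5 were higher (all genes: 10.0%) and 0 lower (all genes: 13.5%) by the edgeR test. At an unadjusted p under 0.05 there were 6 (35.3%, all genes: 38.0%), and the median log2 fold was 0.17. EEF1A1, which delivers aminoacyl-tRNA to the ribosome, rose by 1.41 (SE 0.22), EIF4A2 by 1.28 (SE 0.26) and EIF4B by 0.98 (SE 0.23). Of 18 tested genes of mTOR signalling and TOP control, 1 was higher (all genes: 10.0%) and 2 were lower (all genes: 13.5%), with a median of -0.26. At an unadjusted p under 0.05 there were 7 (38.9%), near the share over all genes. MXI1, a MYC antagonist, rose by 1.65 (SE 0.24), and LARP1, which binds TOP tracts, fell by 0.86 (SE 0.20), as did the mTOR subunit gene MLST8 (SE 0.27). FAU, GNB2L1, RPL36AL and RPS27L, which encode ribosomal or ribosome-bound proteins under other names, had log2 folds between -0.19 and 0.63, and 0 of the 4 passed the edgeR test, with 1 at an unadjusted p under 0.05. All 16 tested S phase genes and 15 of 16 G2/M genes were lower with erlotinib by the edgeR test (all genes: 13.5%). Whether that fall bears on the ribosomal protein values was not tested.

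**Figure D4:**
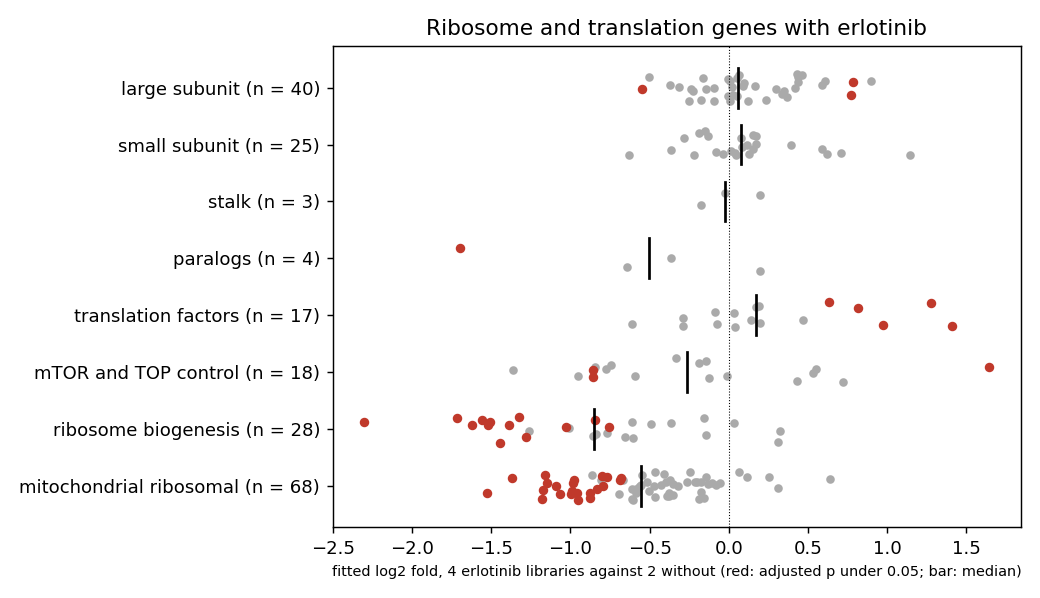
Fitted log2 folds of erlotinib (4 libraries against 2) for each tested gene of the ribosomal protein classes and of related lists; red points passed an edgeR adjusted p of 0.05, and bars are medians. The large and small subunit medians are 0.06 and 0.07, while those of ribosome biogenesis and mitochondrial ribosomal proteins are -0.85 and -0.55.

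The scrambled and untreated libraries, the 2 without drug, differed in ribosomal protein genes by coding length. With 1 library per condition no test was possible between 2 libraries, so genes past 1.5-fold were counted among those at 50 or more CPM in either. Of 70 members compared, 6 were higher in the scrambled library (all genes: 9.94%) and 11 were lower (all genes: 13.5%). Scaling by TMM turned this split to 10 (all genes: 13.1%) and 9 (all genes: 11.0%), as it raised the median log2 ratio of all compared genes from 0.01 to 0.10.

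All 10 members with a coding sequence of at most 300 nt, a limit chosen after seeing these values, had lower CPM in the scrambled library, with a median log2 ratio of -1.05. They were RPL41, RPL39, RPL39L, RPS29, RPS28, RPL38, RPS21, RPS27, RPL37A and RPL37. RPS29, a zinc-binding protein of the small subunit, was at 2506 CPM untreated and 713 CPM in the scrambled library (log2 ratio -1.81, interval -1.91 to -1.72). RPL39 stood at -1.52 (-1.61 to -1.43), RPS28 at -1.44 (-1.61 to -1.27), and RPL39L at -0.10 (-0.30 to 0.11), the smallest of the 10.

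Members of over 300 and up to 600 nt had a median log2 ratio of 0.00 and were below 0 in 20 of 40. Those over 600 nt had a median of 0.41 and were below 0 in 0 of 20. Among the largest shifts upward were RPL17 at 2.69 (2.26 to 3.13) and RPL3 at 1.46 (1.34 to 1.57). Spearman's correlation of the log2 ratio with coding length was 0.73 over the 70 genes, which share the same pair of libraries. With the length of the whole transcript it was weaker, at 0.36. That length is of a single annotated transcript per gene, such as 7686 nt for RPL37 and 3647 nt for RPL37A. Whether these cells express those transcripts was not tested, so the 2 correlations cannot be ranked as effects of length. Of 19 members with a transcript of at most 600 nt, 12 were below 0 and 7 above. Among other coding genes with such a transcript, 53 of 78 were below 0, a similar share.

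Other protein-coding genes showed only part of the order by coding length. Their shortest class was also the lowest, by less, but their longest class was not the highest. Their medians in the same classes of coding length were -0.16 (134 genes, 83 below 0), 0.08 and -0.01. Their correlation with coding length was -0.16 over 3744 genes. The untreated library differed from the scrambled one in virus, in serum and in depth, at 1493.5 against 3343 UMIs in the median cell. Cells thinned to 1000 UMIs gave 8 members higher (all genes: 16.6%) and 12 lower (all genes: 19.3%). These differences cannot be told apart with 1 library each.

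RPL17, a large subunit protein, set the untreated and KDM5A shRNA libraries apart from the other 4. It was at 16.9 CPM untreated and 40.1 with KDM5A shRNA, and between 79.7 and 128 in the others. Its low levels rest on 67 UMIs in the untreated library and on 64 in the KDM5A shRNA library. The 21 named pseudogenes of RPL17 held 64.5% of the sum, so its own level is uncertain. Together with them it was at 82.4 CPM untreated and 118 with KDM5A shRNA, and between 205 and 324 in the others.

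CPI-455 with erlotinib, set against untreated cells, had 11 of 70 members higher (all genes: 20.3%) and 5 lower (all genes: 29.8%). The median log2 ratio of the members was 0.07 and that of all compared genes -0.16. RPL17 at 2.79 (2.33 to 3.25) and RPL3 at 1.78 (1.66 to 1.90) were among the highest. RPL39L at -1.73 (-2.15 to -1.34) and RPS29 at -1.16 (-1.26 to -1.07) were the lowest. The members of at most 300 nt had a median of -0.54, with 8 of 10 below 0, and those over 600 nt one of 0.37. Other coding genes of at most 300 nt had a median of -0.40, with 99 of 139 below 0, and those over 600 nt one of -0.19. A lower shortest class was thus not particular to the members in this pair. This pair shares its untreated library with the previous one.

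KDM5A shRNA with erlotinib, set against the scrambled shRNA, had 1 member of 70 higher (all genes: 23.0%) and 5 lower (all genes: 31.2%). Among the 5 were RPL39L at -1.69 (-2.04 to -1.34), RPL17 at -1.44 (-1.89 to -1.01), RPL22L1 at -1.08 (-1.38 to -0.78) and RPS2 at -0.84 (-0.91 to -0.77). RPS27, a zinc finger protein of the small subunit, was the 1 higher, at 0.89 (0.48 to 1.31). The median over the members was -0.08 and over all compared genes -0.13. Members of at most 300 nt had a median of 0.02 and those over 600 nt of -0.33. Other coding genes in these classes had medians of -0.11 and -0.12.

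**Figure D5:**
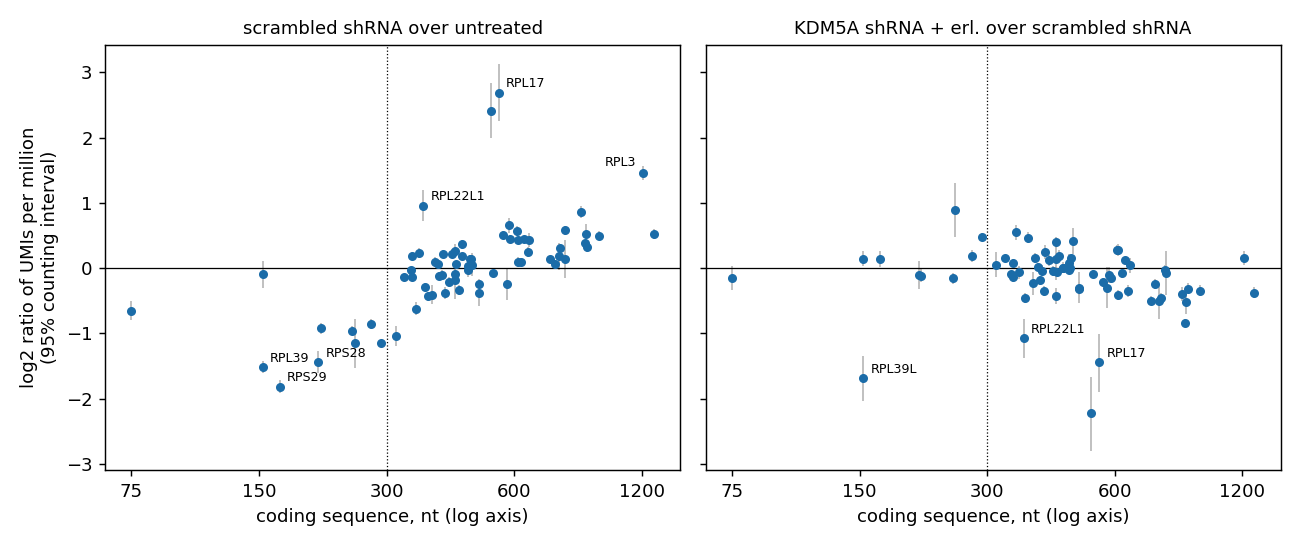
Log2 ratio of CPM with its 95% counting interval against coding length (log axis, nt) for 70 ribosomal protein genes, for the scrambled shRNA library over the untreated one (left) and the KDM5A shRNA library with erlotinib over the scrambled one (right); the dotted line marks 300 nt. On the left all 10 short genes lie below 0 and all 20 genes over 600 nt above it; on the right most genes lie near 0 and RPL39L, RPL22L1 and RPL17 are among those below -1.

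The library labelled KDM5A and KDM5B shRNA, also against the scrambled shRNA, had 6 of 70 members higher (all genes: 25.1%) and 3 lower (all genes: 32.9%). RPS27 at 1.51 (1.07 to 1.96), RPS3A at 1.06 (lower bound 0.73) and RPL28 at 0.67 (0.55 to 0.79) were the highest by the bound nearest 0. RPL39L at -1.86 (-2.39 to -1.37), RPL22L1 at -1.12 (-1.54 to -0.72) and RPL8 at -0.60 (-0.69 to -0.51) were the 3 lower. KDM5B itself was not lower in this library than in the scrambled one, so no direction is drawn for KDM5B knockdown.

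KDM5A cDNA with erlotinib had 13 of 70 members higher than the scrambled library (all genes: 23.3%) and 3 lower (all genes: 31.2%). RPS3A stood at 1.42 (1.08 to 1.75) and RPL28 at 1.09 (0.97 to 1.21). The 3 lower were RPL22L1 at -1.73 (-2.30 to -1.21), RPL39L at -1.60 (-2.13 to -1.11) and RPL18 at -0.66 (-0.77 to -0.56). The median over the members was 0.14, and over all compared genes -0.15. These 3 comparisons share the scrambled library, so the low values of RPL39L and RPL22L1 in all of them rest on its level in part.

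KDM5A shRNA against KDM5A cDNA compared opposite manipulations of the enzyme, both with erlotinib, 4 and 6 days after transduction. Of 70 members, 1 was higher with the shRNA (all genes: 15.1%) and 17 were lower (all genes: 15.0%), with a median log2 ratio of -0.18 against 0.06 for all compared genes. RPS3A at 101 against 286 CPM (log2 interval -1.82 to -1.18), RPSA at -1.31 (upper bound -1.11) and RPS2 at -1.24 (-1.31 to -1.17) were the lowest by the bound nearest 0. RPS2, which lines the messenger RNA entry channel, was at 1960 CPM with the shRNA and 4630 with the cDNA, and between 2688 and 3856 in the other libraries. RPL39L was at -0.08, with an interval from -0.64 to 0.50. The gap in named pseudogenes between these libraries, given next, lies the same way, and its part was not tested.

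Named ribosomal protein pseudogenes numbered 687 symbols in the files, and 623 of them were copies of 65 members. For every 100 UMIs of the members they held 4.15 untreated, 6.58 with the scrambled shRNA and 6.77 with KDM5A shRNA. They held 13.3 with CPI-455, 11.9 in the library labelled for both shRNAs and 14.6 with KDM5A cDNA. The last 3 libraries thus stood above the first 3, and all of them had erlotinib. Reads of a gene and its processed copies are nearly identical, so the files cannot show which of these UMIs came from the gene.

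Pseudogenes took very unequal shares by gene. The 53 named pseudogenes of RPL21 held 95.2% of the UMIs summed over RPL21 and its copies, and the 20 of RPL7 held 92.5%, so the levels of RPL21 and RPL7 themselves are uncertain. RPS3A had 31 named pseudogenes with 57.6% of its sum, RPL3 had 12 with 32.5%, and RPL13A had 8 with 16.7%. RPL37, RPL13 and RPS15A had pseudogene UMIs of 4052, 3999 and 3187, or 9.21%, 10.6% and 16.3% of their sums. RPL29 stood at 1.40% and RPL35 at 4.92%.

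Erlotinib folds lay higher in members with much pseudogene signal, which is given as a description. In 19 tested members whose pseudogenes held at least 10% of the sum, the median log2 fold was 0.34 and 17 were above 0. In the other 53 the median was 0.01, with 27 above 0 and 26 below. Spearman's correlation between the erlotinib fold and the pseudogene share was 0.53 over the 72 members, all measured in the same 6 libraries. The 3 libraries with more pseudogene UMIs lay above the other 3 in 16 of 72 members (all genes: 12.2%) and below them in 5 (all genes: 9.90%).

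With the 2 sets of libraries as a term in the model, 0 members were higher by the edgeR test (all genes: 4.69%), and RPL39L was the only 1 lower (all genes: 5.85%). All libraries of the high set had erlotinib, so the erlotinib fold of that fit rests on KDM5A shRNA against the 2 drug-free libraries. It gives no erlotinib fold for the other erlotinib libraries. Counting each member together with its pseudogenes gave 5 higher, RPL3, RPL7, RPL13A, RPL29 and RPS3A (all genes: 10.4%), and 1 lower, again RPL39L (all genes: 13.6%). The part of read assignment in the folds of RPL13A, RPL3 and RPS3A was not tested.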

How the data were processed

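The deposited tables are raw counts of UMIs, which the values show to be whole and unscaled, with genes by symbol and cells by barcode. STAR, FastQC and the build GRCh37.p13 or hg19 are named without versions, per the submitters' processing notes. The counting tool and the choice of barcodes are not given in the sources used here. Barcodes with at least 500 UMIs and at most 20% mitochondrial UMIs were kept as cells, and their UMIs were summed per library. Between 0 and 1 barcode was shared by any pair of libraries. Doublets were not called, because only 1 cell line was used. CPM are these counts scaled to a fixed library total; 3 counts, the floor, correspond to between 0.758 and 5.08 CPM.

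Erlotinib was tested with edgeR 4.0.16 (TMM, filterByExpr, robust quasi-likelihood fit, Benjamini-Hochberg adjustment, 4 libraries against 2) and checked on simulated data. Standard errors come from the fold and its F statistic. Pairs of libraries have conditional Clopper-Pearson intervals for their ratio and no test; shares have exact binomial intervals, and levels exact Poisson intervals. Class medians by coding length add 0.5 to each count. Alternatives used DESeq2 1.42.0, limma 3.58.1, other scalings, filters and barcodes, thinning, added pseudogenes, and leaving out each library. Coding and transcript lengths came from GENCODE by symbol, and start sequences from RefSeq. No other coordinates are given, since the builds differ.

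The members, lists and tests were chosen with earlier results of these data known. Named are the members called with erlotinib, the 6 largest and 6 smallest folds, the paralogs, the 6 with the most UMIs and the 6 with the most pseudogene UMIs, up to 3 at each end of a pair of libraries, and up to 3 called genes of each other list. RPL7, RPL41, RPL37A, RPS21 and the members listed for groups that did not overlap were named after their values were seen. Some genes picked by this rule are not reported here.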

Additional observations from a re-analysis of the deposited data

How the results depend on the processing

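RPL39L was called lower by every test run, including each fit without 1 library. The other calls depended on the settings. Members called higher numbered 2 in the main result (all genes: 10.0%) and 5 with pseudogenes added (all genes: 10.4%). They numbered 0 with the split in pseudogene UMIs as a term (all genes: 4.69%). Leaving out 1 erlotinib library at a time gave 0 to 5 (all genes: 4.83% to 12.2%). Fits of the transduced or the low-pseudogene libraries only leave 1 library on a side, as do fits without a drug-free library. No counts are given for these. The low-pseudogene fit was chosen after seeing the data. Members called lower numbered 2 (all genes: 13.5%). There was 1 with RLE size factors (all genes: 13.3%), with pseudogenes added (all genes: 13.6%) and with that split as a term (all genes: 5.85%). Leaving out 1 erlotinib library at a time also gave 1 (all genes: 8.36% to 13.9%). The log2 fold of RPS29 lay between -1.27 and 0.47 leaving out each library, reversed without the untreated one, and reversed to 0.43 in the transduced libraries only. RPSA reversed to -0.23 with the split as a term and to -0.16 in the low-pseudogene libraries only. Both of these folds set the KDM5A shRNA library against the drug-free ones. Of the pairs, CPI-455 over untreated went to 20 higher with pseudogenes (all genes: 19.5%) and 8 lower with thinned cells (all genes: 32.2%). Scrambled over untreated went to 10 higher with TMM (all genes: 13.1%). The library labelled KDM5A and KDM5B shRNA over scrambled went to 2 higher (all genes: 24.4%) and 5 lower (all genes: 34.4%) over all barcodes. It went to 11 higher with pseudogenes (all genes: 24.6%) and 10 lower with thinned cells (all genes: 33.9%). KDM5A cDNA over scrambled went to 22 higher with pseudogenes (all genes: 22.2%) and 6 lower with thinned cells (all genes: 34.9%). KDM5A shRNA over KDM5A cDNA went to 2 higher with thinned cells (all genes: 24.0%). The share of UMIs, from untreated to KDM5A cDNA in the order of the report, was 11.7%, 11.7%, 12.6%, 11.2%, 11.8% and 13.4% with pseudogenes. As a mean of single cells it was 11.1%, 10.8%, 10.8%, 10.5%, 9.86% and 10.9%. Over all barcodes it was 11.2% untreated, 10.99% with CPI-455, 10.5% with KDM5A shRNA, 9.95% in the library labelled for both shRNAs and 11.3% with KDM5A cDNA. The cause was not tested. No paired analysis was possible because each condition had 1 library and the labels give no replicate numbers. Depth limits the 4 members under the filter on low counts, RPL3L, RPL10L and RPS26 among them, which were tested only without that filter.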
